A study of Mus musculus with 27 samples.

Results

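Tri PD1+KLRG1+ cells, which carry both PD-1 and KLRG1, were compared with Tri PD1-KLRG1- cells, which carry neither, in CD8+ T cells from MC38 tumours of mice. The 5 libraries of each population were picked by the treatment and sort gate in their labels, and they make up 10 of the 27 libraries of the series. The same treatment also has 5 libraries of Tri PD1+KLRG1- cells and 4 of Tri PD1-KLRG1+ cells. These 19 libraries form a layout of 4 gates in which it can be asked whether the PD1+KLRG1+ cells differ from the PD1-KLRG1- cells by the sum of the PD1 difference (PD1+KLRG1- over PD1-KLRG1-) and the KLRG1 difference (PD1-KLRG1+ over PD1-KLRG1-). All 19 share the treatment Tri, the combined immunotherapy that the series text shortens to TCT, whose components the sources used here do not give. MC38 is a mouse colon adenocarcinoma line, entered in the labels under strain, and they give no age, genotype or host strain of the mice. Tumours were digested, stained with a viability dye and for KLRG1, PD-1, CD8, CD3 and CD45, and sorted by flow cytometry. The other 8 libraries, PD1- cells under isotype control, enter no comparison below.

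T cells place PD-1, the product of Pdcd1, on their surface after antigen recognition and keep it there under lasting stimulation. It restrains their activation and is the target of checkpoint blockade. KLRG1 is an inhibitory receptor of the lectin family that binds cadherins and is best known in mice as a mark of short-lived effector cells in acute infection. In tumours the PD-1+ fraction of CD8+ T cells is enriched for cells that have met tumour antigen. A cell with both receptors could combine the programs of the cells with either, which on the log2 scale means that the separate differences add up, or could have a program of its own.

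Library totals ran from about 13167500 to 18884700 counts in PD1+KLRG1+ and from about 11594000 to 16709100 counts in PD1-KLRG1- libraries. Over the 19 libraries they ran from 8586184 to 21204098 counts. Between replicates, log2 expression correlated at 0.71 to 0.84 in PD1+KLRG1+ and at 0.77 to 0.89 in PD1-KLRG1- cells. Replicate 5 of PD1-KLRG1- stood apart, with a mean correlation of 0.78 to the other 4 libraries of its gate, which had 0.84 to 0.86. Whether the libraries of a gate come from separate mice is not stated in the labels, so p-values measure the spread between these samples, which may be technical. The sort genes only check the labels. Pdcd1 (ENSMUSG00000026285) was at 688, 632, 912, 1182 and 1270 CPM (counts scaled to a common library size) in the PD1+KLRG1+ libraries, against 152, 77.4, 154, 111 and 105 CPM in the PD1-KLRG1- libraries. Klrg1 (ENSMUSG00000030114) was at 125, 146, 68.3, 80.8 and 39.3 CPM in PD1+KLRG1+ libraries, against 40.3, 20.7, 8.69, 10.5 and 18.7 CPM in PD1-KLRG1- libraries. The Klrg1 ranges met, with PD1+KLRG1+ replicate 5 below PD1-KLRG1- replicate 1. Klrg1 averaged 256 ± 70.3 CPM in PD1-KLRG1+ and 5.12 ± 2.86 CPM in PD1+KLRG1- libraries (SD, n = 4 and 5). Cd8a ran from 1671 to 2208 CPM in PD1+KLRG1+ and from 1335 to 1749 CPM in PD1-KLRG1- libraries, and the T cell receptor component Cd3e from 1270 to 1515 and from 1015 to 1154 CPM. Summed over the marker lists for other cell types, myeloid transcripts were at 332 to 919 CPM in PD1+KLRG1+ and 372 to 837 CPM in PD1-KLRG1- libraries. Of the 17 myeloid markers, 11 were higher and 5 lower on average in PD1+KLRG1+. Tumour and stroma transcripts were at 549 to 845 CPM in PD1+KLRG1+ and 421 to 798 CPM in PD1-KLRG1- libraries, with 2 of the 16 markers higher and 9 lower on average in PD1+KLRG1+.

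PD1+KLRG1+ cells held more transcripts of a block of granzymes, of perforin, and of some inhibitory and costimulatory receptors, cell cycle genes and glycolytic enzymes than PD1-KLRG1- cells. They held fewer transcripts of some memory and egress genes, chemokine receptors and interferon-stimulated genes. Of 13288 genes tested, 224 were called higher (1.69%) and 266 lower (2.0%) with edgeR's quasi-likelihood test, called at a Benjamini-Hochberg p under 0.05. The 490 genes make up 3.69% of those tested, and 2253 genes had an unadjusted p under 0.05. In 592 genes (4.46%) the 5 PD1+KLRG1+ and the 5 PD1-KLRG1- libraries did not overlap. Sample descriptions come with and without an RNA-number suffix, replicates 1 to 3 without and 4 and 5 with it. Within the libraries without the suffix 126 genes were called higher and 200 lower. Those with it are 2 in each gate compared and only replicate 4 of PD1-KLRG1+, and far fewer genes were called within them. Calls of genes named below that ended within the libraries without the suffix included those of Il2rb, Ptprc, Gapdh, Ifngr1 and Osbpl3 (adjusted p of 0.051 to 0.0722). So did those of Scin, Pxdc1, Cd163l1, Vipr1, Aqp9 and St8sia1, which are among the largest changes (adjusted p of 0.051 to 0.197). A fit over all 27 libraries ended, among others, the calls of Klrg1, Havcr2, Tox, Tnfrsf4, Satb1, Plk1, Cenpe and Osbpl3 (adjusted p of 0.0666 to 0.339) and of Mki67 (0.7). Without PD1-KLRG1- replicate 1 there were 159 higher and 157 lower genes. In bulk RNA a lower level from fewer cells of a kind cannot be told apart from less RNA per cell.

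**Figure D1:**
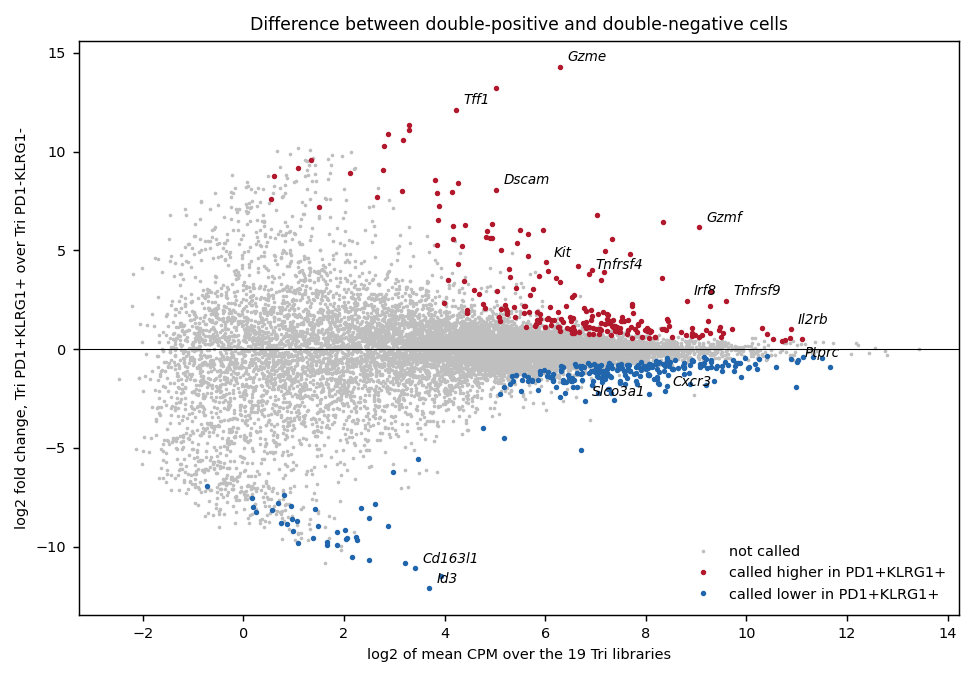
The log2 fold change of PD1+KLRG1+ over PD1-KLRG1- cells (vertical axis) is plotted against the log2 of the mean CPM over 19 Tri libraries (horizontal axis) for 13288 genes, a point per gene. The 224 genes called higher and the 266 called lower are coloured, and genes of high level such as Il2rb and Ptprc are called at much smaller changes than genes of low level.

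The largest increases included a cluster of granzyme genes. Granzymes are serine proteases that T cells load into cytotoxic granules and deliver into target cells through pores made by perforin. Gzme (ENSMUSG00000022156) was at 106, 178, 135, 156 and 299 CPM in PD1+KLRG1+ libraries and had no count in any of the 5 PD1-KLRG1- libraries. Against a floor of 3 counts over the PD1-KLRG1- group it was at least 3823-fold higher (adjusted p = 1.01e-09, edgeR), a floor that covers counting error only. Gzmg had 25.4, 54.1, 89, 47.7 and 222 CPM in PD1+KLRG1+ libraries and no count in PD1-KLRG1- libraries, at least 1821-fold higher (adjusted p = 1.57e-05). Every PD1+KLRG1+ library held both transcripts and no PD1-KLRG1- library did. Gzmf reached 787, 1367, 983, 854 and 1753 CPM in PD1+KLRG1+ cells, against 3.11, 1.20, 28.3, 2.12 and 53.7 CPM in PD1-KLRG1- cells (6.17 ± 0.89, log2 fold change ± SE, adjusted p = 0.000325). Gzmc was at 401, 870.2, 489, 359 and 1411 CPM in PD1+KLRG1+ libraries, against 5.64, 2.97, 12, 0.439 and 20.1 CPM in PD1-KLRG1- libraries (6.42 ± 0.70, adjusted p = 1.57e-05). Gzmd ranged from 152 to 485 CPM in PD1+KLRG1+ cells and from 0 to 13.1 CPM in PD1-KLRG1- cells (6.78 ± 1.08, adjusted p = 0.00128). What the PD1-KLRG1- libraries held of Gzmc, Gzmd and Gzmf lay mainly in replicates 3 and 5. PD1+KLRG1- cells held the same 5 transcripts, with means of 519.8 CPM for Gzmc, 204 for Gzmd, 122 for Gzme, 854 for Gzmf and 35.6 for Gzmg, while the highest mean in PD1-KLRG1+ cells was 4.57 CPM, of Gzmc. The 5 genes are close paralogs, so the authors' counting may have divided reads between them, and their separate levels are uncertain.

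The likeness of these paralogs extends to their promoters, which are shown because the 5 genes moved together. Each line holds 100 bases upstream of the annotated start in RefSeq (GRCm38.p6, minus strand of chromosome 14), from 5′ to 3′. The capitals mark the longest run that all 5 share, 20 bases.
Gzmd: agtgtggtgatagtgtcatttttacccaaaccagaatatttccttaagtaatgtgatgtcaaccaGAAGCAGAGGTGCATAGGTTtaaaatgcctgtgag
Gzme: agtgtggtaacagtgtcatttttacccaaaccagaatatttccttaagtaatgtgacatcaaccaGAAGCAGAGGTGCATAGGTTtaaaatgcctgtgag
Gzmf: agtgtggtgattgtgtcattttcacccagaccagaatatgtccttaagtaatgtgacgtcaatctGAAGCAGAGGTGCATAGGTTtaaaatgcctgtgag
Gzmg: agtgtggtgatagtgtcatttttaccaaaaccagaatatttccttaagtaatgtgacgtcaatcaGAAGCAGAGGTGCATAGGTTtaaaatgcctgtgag
Gzmc: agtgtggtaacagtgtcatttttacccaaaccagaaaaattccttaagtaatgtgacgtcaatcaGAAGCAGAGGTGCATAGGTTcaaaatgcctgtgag
The windows lie at chr14:56132608-56132707 for Gzmd, chr14:56120641-56120740 for Gzme, chr14:56211443-56211542 for Gzmf, chr14:56159610-56159709 for Gzmg and chr14:56234668-56234767 for Gzmc. Any pair of windows has 90 to 97 of 100 bases in common, with Gzmd and Gzmg the most alike and Gzmf and Gzmc the least. Searched on both strands in the 250 bases before each start, the run GAAGCAGAGGTGCATAGGTT occurs in these 5 genes and in no other of 32851 RefSeq promoters (0.0152%), so not in Gzmb. The cAMP response element TGACGTCA occurs in 3 of the 5 promoters (Gzmc, Gzmf and Gzmg) and in 1.55% of all promoters. The RUNX sequence AACCACA occurs in all 5, in Gzmb as well, and in 4.40% of all promoters. These matches describe letters and no binding was measured.

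Among the 19 cytotoxic molecules, 6 rose and 3 fell in PD1+KLRG1+ cells, and the median log2 fold change was 0.28, beside -0.03 over all genes tested. Over all genes tested 1.69% rose and 2.0% fell, shares that also stand beside the counts of the lists below. Apart from the 5 granzymes, the gene that rose was Prf1 (ENSMUSG00000037202), which encodes perforin. Prf1 was at 882, 963, 969, 902 and 1163 CPM in PD1+KLRG1+ libraries, against 258, 223, 202, 248 and 149.9 CPM in PD1-KLRG1- libraries. The lowest PD1+KLRG1+ library was more than 3 times the highest PD1-KLRG1- library, and the log2 fold change was 2.17 ± 0.21 (adjusted p = 4.12e-06). The 3 genes that fell were Gzmm, another granzyme (-4.01 ± 1.01, adjusted p = 0.0285), Fasl, the ligand of the death receptor Fas (-0.72 ± 0.18, 0.0222), and Ctsw, a cathepsin of cytotoxic cells (-0.37 ± 0.09, 0.0261). Without PD1-KLRG1- replicate 1 or replicate 3 none of the 19 fell, and without PD1+KLRG1+ replicate 1 or PD1-KLRG1- replicate 4, 1 did. Ifng, the cytokine interferon gamma, was at 472, 477, 566, 464 and 392 CPM in PD1+KLRG1+ cells, against 199, 137, 153, 106 and 498 CPM in PD1-KLRG1- cells, and did not pass (log2 fold change 1.09 ± 0.35, adjusted p = 0.0981). Its ranges met through PD1-KLRG1- replicate 5, which was above 4 of the 5 PD1+KLRG1+ libraries. Without that library Ifng was called, at 1.79 (adjusted p = 3.81e-05), as it was within the libraries without the name suffix, at 1.65 (adjusted p = 0.000805). It was also called without a filter on low counts and by DESeq2 (adjusted p = 7.5e-06 and 0.0273).

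Gzma and Gzmb, the granzymes most often measured, behaved otherwise than the cluster. Gzma (ENSMUSG00000023132) was at 205, 103, 178, 81.3 and 0.883 CPM in PD1+KLRG1+ libraries, against 644, 477, 507, 323 and 371 CPM in PD1-KLRG1- libraries. All PD1+KLRG1+ values were below all PD1-KLRG1- values, but replicate 5 was far from the other 4 and the difference did not pass (-2.32 ± 0.70, adjusted p = 0.0719). Without that library it passed, at -1.95 (adjusted p = 0.0421). The parts of the Gzma difference were opposed in sign, and only the PD1 part passed. The PD1 difference was -5.64 ± 0.81 (adjusted p = 0.000206), with 11.7 ± 8.62 CPM in PD1+KLRG1- cells, and the KLRG1 difference was 1.50 ± 0.71 (adjusted p = 0.966), with 1617 ± 743 CPM in PD1-KLRG1+ cells. Gzmb (ENSMUSG00000015437) showed opposed parts of like size, -0.71 ± 0.17 for PD1 (adjusted p = 0.0183) and 0.78 ± 0.18 for KLRG1 (adjusted p = 0.307), of which only the PD1 part passed. Its level was 2726, 2186, 2058, 1889 and 2832 CPM in PD1+KLRG1+ libraries, against 2159, 2309, 1973, 1566 and 1857 CPM in PD1-KLRG1- libraries. These ranges overlapped, and the difference of 0.25 ± 0.17 (adjusted p = 0.524, 95% interval -0.10 to 0.60) sits beside a sum of 0.07 ± 0.30.

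**Figure D2:**
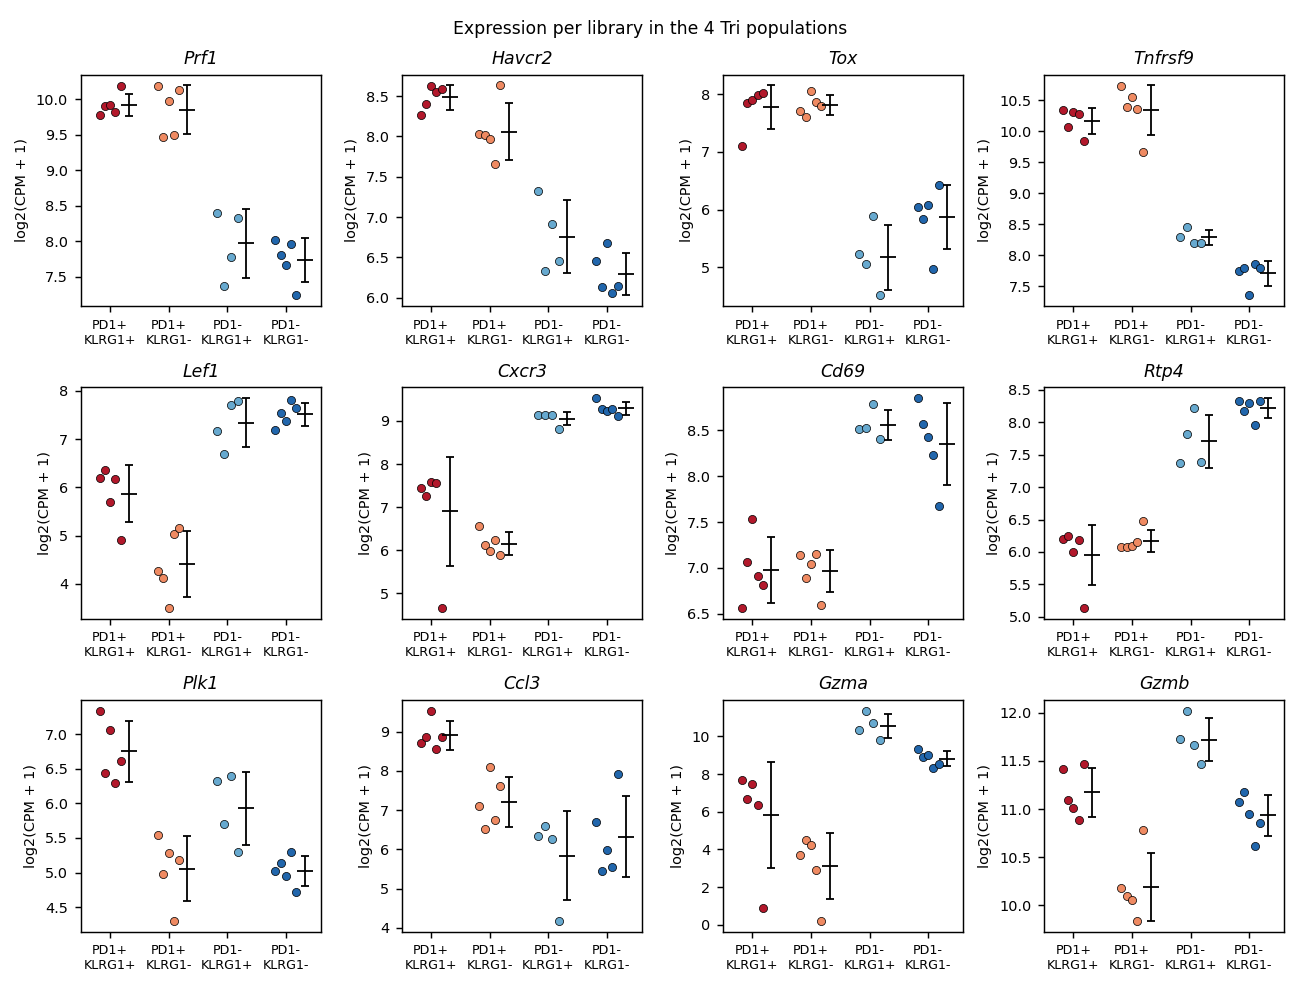
Each panel plots the level of a gene as log2(CPM + 1) on the vertical axis in every library of the 4 Tri gates on the horizontal axis, a point per library, with the mean and SD on that scale beside the points. Prf1, Havcr2, Tox and Tnfrsf9 are high and Lef1, Cxcr3, Cd69 and Rtp4 low in both PD1+ gates, Plk1 and Ccl3 are highest in PD1+KLRG1+ cells, and Gzma and Gzmb are lowest in PD1+KLRG1- cells.

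Some receptors and transcription factors of repeatedly stimulated T cells rose in PD1+KLRG1+ cells. Of 17 inhibitory receptors tested, 3 rose and none fell: Havcr2, Lag3 and Tigit. Havcr2, which encodes TIM-3, was at 306, 336, 395, 372 and 385 CPM in PD1+KLRG1+ libraries, against 86.8, 69.1, 101, 65.4 and 69.6 CPM in PD1-KLRG1- libraries. The groups were far apart, with a log2 fold change of 2.20 ± 0.22 (adjusted p = 4.67e-06). Lag3, a receptor for MHC class II, had 90.1, 45.4, 126, 110.2 and 98.9 CPM in PD1+KLRG1+ libraries, against 10.7, 9.15, 10.0, 7.54 and 19 CPM in PD1-KLRG1- libraries (3.06 ± 0.41, adjusted p = 0.000134). Tigit, which competes for ligands with the activating receptor CD226, rose by 1.42 ± 0.23 (adjusted p = 0.000664). The median over the inhibitory receptors was 0.14, and the other 14 did not pass.

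Of 18 transcription factors of exhaustion and antigen-receptor signalling, 3 rose and none fell. Tox, a chromatin regulator required for the exhausted state, was at 136, 231, 239, 254 and 259 CPM in PD1+KLRG1+ libraries, against 64.9, 56.3, 67, 30.2 and 84.5 CPM in PD1-KLRG1- libraries (1.89 ± 0.28, adjusted p = 0.000337). Replicate 1 of PD1+KLRG1+ was the lowest of its gate and still above every PD1-KLRG1- library. Irf8, an interferon regulatory factor that is also induced in activated CD8+ T cells, averaged 733 ± 125 CPM in PD1+KLRG1+ and 135 ± 43.4 CPM in PD1-KLRG1- cells (SD, n = 5 each), a log2 fold change of 2.45 ± 0.19 (adjusted p = 1.99e-07). Rbpj, the DNA-binding partner of Notch, rose by 1.46 ± 0.32 (adjusted p = 0.00993).

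The costimulatory receptors that rose belong to the TNF receptor family. Tnfrsf9, which encodes 4-1BB, was at 1297, 1078, 1267, 1238 and 919.8 CPM in PD1+KLRG1+ libraries, against 215, 220.1, 163, 230.4 and 222 CPM in PD1-KLRG1- libraries (2.46 ± 0.16, adjusted p = 2.53e-08). Tnfrsf4, which encodes OX40, had 289.6, 213, 224, 117 and 102 CPM in PD1+KLRG1+ cells, against 5.42, 13.3, 3.04, 19.3 and 28.1 CPM in PD1-KLRG1- cells (3.79 ± 0.57, adjusted p = 0.000392). No library of either gate lay in the range of the other for these genes. Of the 13 costimulatory receptors these 2 rose and Slamf7, a receptor of the SLAM family, fell (-0.94 ± 0.18, adjusted p = 0.00393). Tnfrsf4 is also a marker of CD4+ and regulatory T cells. Summed over the 10 markers of those cells, levels were 587 to 720.4 CPM in PD1+KLRG1+ and 257 to 444 CPM in PD1-KLRG1- libraries, and 9 of the 10 were higher on average in PD1+KLRG1+. Cd4 was at most 7.07 CPM in PD1+KLRG1+ and 0.321 CPM in PD1-KLRG1- libraries and at 0 in 3 of 5 libraries of each, and Foxp3 was at 0 in 4 of 5 PD1+KLRG1+ and 2 of 5 PD1-KLRG1- libraries.

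Among 18 cytokine receptors, Il2rb, the beta chain shared by the IL-2 and IL-15 receptors, rose (2358 ± 563 CPM in PD1+KLRG1+ and 1153 ± 96.4 CPM in PD1-KLRG1- cells, log2 fold change 1.01 ± 0.15, adjusted p = 0.000328). Ifngr1, a chain of the interferon gamma receptor, fell (-0.74 ± 0.14, adjusted p = 0.00329). Il7r, the receptor that marks memory precursors, ranged from 87.2 to 112 CPM in PD1+KLRG1+ and from 134 to 208 CPM in PD1-KLRG1- libraries and did not pass (-0.87 ± 0.26, adjusted p = 0.0717), although the ranges did not meet. Il7r was called by DESeq2, without a filter on low counts, among genes of at least 50 CPM and in the 10 libraries alone (adjusted p = 0.0275, 0.0372, 0.0342 and 0.0448).

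Genes of stem-like and memory T cells fell in PD1+KLRG1+ cells where they passed. Of 20 tested, 7 fell and none rose, with a median of -1.60, against -1.62 for the PD1 and -0.23 for the KLRG1 difference. Id3, an inhibitor of E proteins that sustains memory precursors, had no count in the 5 PD1+KLRG1+ libraries, against 51.6, 20.8, 20.2, 34.1 and 69.5 CPM in PD1-KLRG1- libraries. It was at least 1156-fold lower against the floor of 3 counts over the PD1+KLRG1+ group (adjusted p = 0.000494). Id3 averaged 2.39 ± 2.03 CPM in PD1+KLRG1- and 9.28 ± 3.22 CPM in PD1-KLRG1+ cells. Satb1, a chromatin organiser, fell to 66.4, 117, 48.1, 129.7 and 94.3 CPM in PD1+KLRG1+ libraries, against 236, 226, 367, 288 and 342 CPM in PD1-KLRG1- libraries (-1.70 ± 0.26, adjusted p = 0.000519).

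Others that fell included Lef1, a partner of TCF-1 (-1.54 ± 0.31, adjusted p = 0.00537), Slamf6, a surface marker of stem-like cells (-1.66 ± 0.37, 0.0131), Foxo1, a factor of quiescence (-2.03 ± 0.33, 0.000961), and S1pr1. Tcf7, which encodes TCF-1, was at 0.313, 62.3, 1.70, 50.4 and 0.294 CPM in PD1+KLRG1+ libraries, against 232, 169.6, 241, 237 and 516 CPM in PD1-KLRG1- libraries. Every PD1+KLRG1+ library was lower, 3 of them below 2 CPM, and the difference of -3.57 ± 1.00 did not pass (adjusted p = 0.0518). It was called with a minimum count of 50 (adjusted p = 0.0478). Without PD1+KLRG1+ replicate 2 it was called at -4.91 (adjusted p = 0.0139), and it was also called without a filter on low counts (adjusted p = 2.82e-27) and among genes of at least 50 CPM (adjusted p = 0.0232). Without the filter the Tcf7 difference was -3.56 from the same libraries, and why its p was so much smaller was not tested.

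Receptors for migration mostly fell where they passed. Of 19 chemokine receptors and egress genes, 5 fell and 1 rose, with a median of -1.06. Cxcr3, which guides effector T cells to interferon-induced chemokines, was at 173, 153, 190.1, 189 and 24.2 CPM in PD1+KLRG1+ libraries, against 739.6, 618, 599.6, 621 and 556 CPM in PD1-KLRG1- libraries (-2.13 ± 0.33, adjusted p = 0.000503). Replicate 5 of PD1+KLRG1+ held far less Cxcr3 than the other 4. S1pr1, the receptor for the egress signal sphingosine-1-phosphate, had 62.9, 54.7, 35.8, 111 and 5.08 CPM in PD1+KLRG1+ cells, against 315, 346, 279, 352 and 325 CPM in PD1-KLRG1- cells (-2.59 ± 0.68, adjusted p = 0.0365), with replicate 5 of PD1+KLRG1+ again the lowest. This call ended in 7 of 10 fits that left out 1 library, with adjusted p up to 0.0758. Ccr2, a receptor for inflammatory chemokines, fell by 1.87 ± 0.46 (adjusted p = 0.0239), and Ccrl2, an atypical receptor, rose by 2.19 ± 0.45 (adjusted p = 0.00706). Without PD1-KLRG1- replicate 1, 2 of the 19 fell, and without its replicate 2 or 4, or PD1+KLRG1+ replicate 3, 3 fell.

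Interferon-stimulated genes moved in the lower direction only. None of the 20 had a positive log2 fold change and 11 fell. Of all 13288 genes tested, 6443 had a positive log2 fold change and 2.0% fell. The list median was -1.32, beside -1.34 for the PD1 and -0.52 for the KLRG1 difference. Rtp4, a chaperone induced by type I interferon, was at 72.1, 75.1, 62.8, 72.1 and 34.1 CPM in PD1+KLRG1+ libraries, against 321, 287, 312, 248 and 320.4 CPM in PD1-KLRG1- libraries (-2.24 ± 0.22, adjusted p = 4.12e-06). Irf7, the factor that amplifies interferon production, had 129, 171, 164, 196 and 191 CPM in PD1+KLRG1+ cells, against 501, 473, 373, 462 and 660.4 CPM in PD1-KLRG1- cells (-1.54 ± 0.18, adjusted p = 2.81e-05). Neither gene had overlapping libraries. Others that fell included Usp18, which restrains the interferon receptor (-1.60 ± 0.21, adjusted p = 0.000107), the antiviral genes Ifit1 (-1.68 ± 0.33, 0.00423), Ifit3 (-1.79 ± 0.28, 0.000628), Oas3 (-1.67 ± 0.32, 0.00386) and Isg20 (-0.65 ± 0.15, 0.0151), the ubiquitin-like modifier Isg15 (-1.21 ± 0.31, 0.0316), the nucleic acid sensor Zbp1 (-1.13 ± 0.15, 0.000175), and Ifi27l2a (-0.95 ± 0.22, 0.0194). Leaving out any 1 of the 10 libraries gave 9 to 12 called members, all lower.

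Proliferation genes rose in PD1+KLRG1+ cells where they passed. Of 34 tested, 33 had a positive log2 fold change, 12 rose and none fell. Among all 13288 genes, 6443 were positive and 1.69% rose. The list median was 0.97, beside 0.11 for the PD1 and 0.58 for the KLRG1 difference. Plk1, a mitotic kinase, was at 161, 85.7, 133, 77.8 and 97.1 CPM in PD1+KLRG1+ libraries, against 31.5, 34.4, 29.8, 38.3 and 25.4 CPM in PD1-KLRG1- libraries (1.76 ± 0.28, adjusted p = 0.000649). Cenpe, a kinetochore motor, was at 108, 119, 121, 37.6 and 43.9 CPM in PD1+KLRG1+ cells, against 27, 22.6, 15.5, 24.4 and 18.9 CPM in PD1-KLRG1- cells (1.84 ± 0.33, adjusted p = 0.00182). In PD1+KLRG1+ cells Cenpe was lowest in replicates 4 and 5, still above every PD1-KLRG1- library. Mki67, which encodes the cycling marker Ki-67, ranged from 167 to 315 CPM in PD1+KLRG1+ and from 66.4 to 160 CPM in PD1-KLRG1- libraries (1.03 ± 0.28, adjusted p = 0.0478), a call that ended in 8 of 10 fits with a library left out. The Mki67 call also ended with median-ratio scaling (adjusted p = 0.0503), without the name-series term (0.051) and in the 10 libraries alone (0.0922). The others that rose were Cdk1, Cenpf, Mcm2, Mcm5, Pcna, Rrm1, Rrm2, Tyms and Tk1, by 0.75 (Mcm2) to 1.60 (Cenpf). Leaving out 1 library gave 6 called members without PD1-KLRG1- replicate 2, 7 without replicate 1 or 3 of that gate and 19 without its replicate 5. A fit over all 27 libraries called 2, a fit of the 10 libraries alone 3, and the libraries with the name suffix 0.

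Glycolytic genes shared this direction at smaller size. Of 18, 16 were positive, 7 rose and none fell, beside the same shares over all genes, and the median was 0.54. Tpi1, triosephosphate isomerase, averaged 974 ± 137 CPM in PD1+KLRG1+ and 461 ± 125 CPM in PD1-KLRG1- cells (1.11 ± 0.14, adjusted p = 0.000107). Gapdh averaged 1697 ± 290.2 CPM in PD1+KLRG1+ and 1002 ± 227 CPM in PD1-KLRG1- cells (0.77 ± 0.14, adjusted p = 0.00251). Aldoa, Pgam1, Pkm, Ldha and Bnip3 also rose, by 0.43 (Pkm) to 1.89 (Bnip3). Without the name-series term, within the libraries without the suffix, or in a fit over all 27 libraries, 2 glycolytic genes were called, and without replicate 1 or 4 of PD1+KLRG1+, 4.

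**Figure D3:**
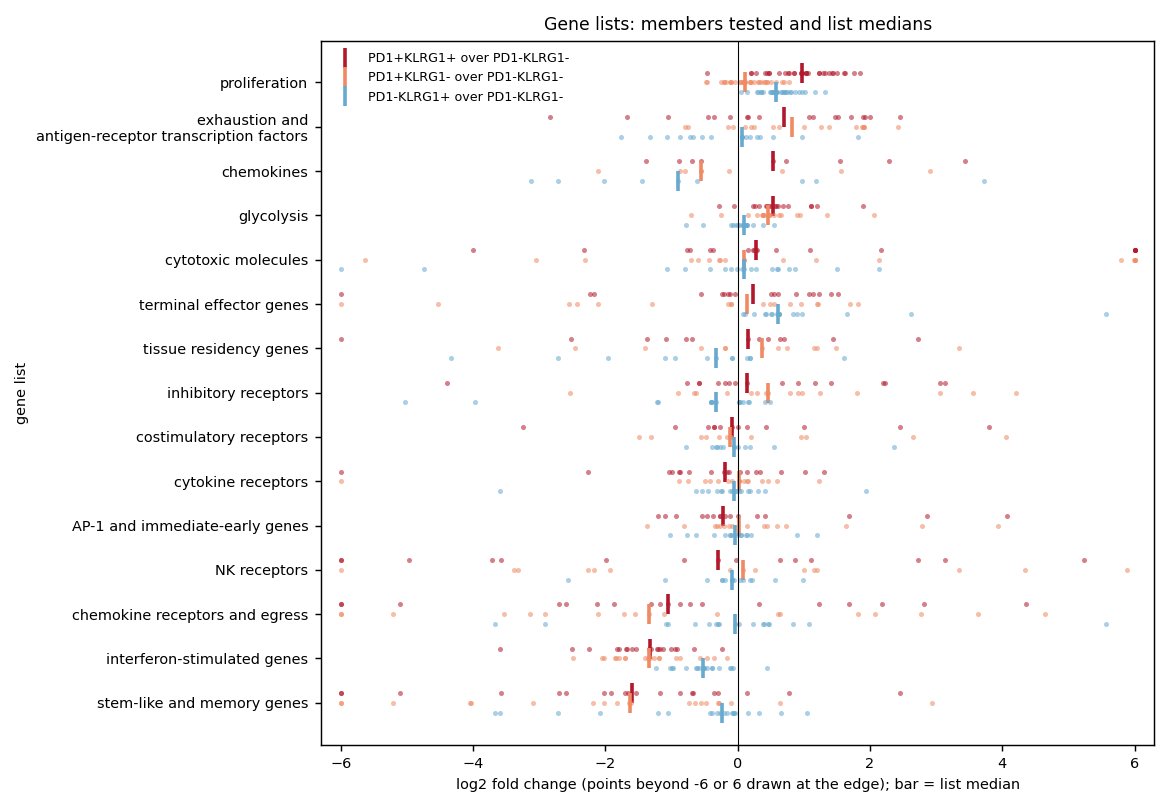
For each of 15 gene lists (vertical axis), points give the log2 fold change (horizontal axis) of the members tested and bars the list median, for PD1+KLRG1+, PD1+KLRG1- and PD1-KLRG1+ over PD1-KLRG1- cells. The proliferation median is 0.97 for PD1+KLRG1+ and 0.11 for PD1+KLRG1- cells, while the interferon and the stem-like and memory medians are nearly equal in those gates.

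Terminal effector genes, the list closest to the usual reading of KLRG1, were split. Of 18, 3 rose, 1 fell and the median was 0.23, beside 0.62 for the KLRG1 difference. Anxa2, a calcium-dependent membrane-binding protein, ranged from 1520 to 1773 CPM in PD1+KLRG1+ and from 736 to 816 CPM in PD1-KLRG1- libraries (1.08 ± 0.11, adjusted p = 9.17e-06). S100a4, a calcium-binding protein of motile cells, rose by 1.41 ± 0.21 (adjusted p = 0.000353) and Bhlhe40, a factor of cytokine production, by 0.62 ± 0.14 (adjusted p = 0.0179). Itgax, which encodes CD11c, fell (-2.23 ± 0.57, adjusted p = 0.0302), though no member of the list fell in 6 of 10 fits with a library left out. Cx3cr1, a chemokine receptor of circulating effector cells, had 59.5, 146, 43.2, 144 and 166 CPM in PD1+KLRG1+ cells, against 60.5, 32.3, 49.2, 37.4 and 43.9 CPM in PD1-KLRG1- cells, and did not pass (1.24 ± 0.37, adjusted p = 0.0678). Replicates 1 and 3 of PD1+KLRG1+ were in the range of PD1-KLRG1- and the other 3 above it. Zeb2, a repressor that drives terminal differentiation, did not pass either (1.52 ± 0.45, adjusted p = 0.0685). Both genes were called by DESeq2 (adjusted p = 0.0102 for Cx3cr1 and 0.00207 for Zeb2). Cx3cr1 was called without PD1+KLRG1+ replicate 1 or 3 (adjusted p = 0.0492 and 0.0287), without a filter on low counts (0.00278) and among genes of at least 50 CPM (0.0321), and Zeb2 without PD1+KLRG1+ replicate 1 or PD1-KLRG1- replicate 5 (adjusted p = 0.0465 and 0.0204). Tbx21, which encodes T-bet, had 269 ± 73.7 CPM in PD1+KLRG1+ and 292 ± 44 CPM in PD1-KLRG1- cells (-0.12 ± 0.18, adjusted p = 0.834, 95% interval -0.49 to 0.25).

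Of 13 tissue residency genes, 3 rose and 2 fell. Cd69, an early activation and retention marker, fell to 93.4, 132, 184, 119.5 and 111 CPM in PD1+KLRG1+ libraries, against 461, 378, 344, 300.1 and 203 CPM in PD1-KLRG1- libraries (-1.38 ± 0.19, adjusted p = 0.000182). P2rx7, an ATP-gated channel, had no count in PD1+KLRG1+ libraries, against 8.09, 9.63, 22.9, 25.4 and 0 CPM in PD1-KLRG1- libraries, and fell as well (adjusted p = 0.0404), but in 9 of 10 fits with a library left out only 1 residency gene fell. Litaf rose by 1.44 ± 0.18 (adjusted p = 6.00e-05), Cd244a, a receptor of the SLAM family, by 2.73 ± 0.61 (adjusted p = 0.0125) and Rgs1, a regulator of chemokine receptor signals, by 0.63 ± 0.17 (adjusted p = 0.0452). The Cd244a call ended without PD1-KLRG1- replicate 1 (adjusted p = 0.0516). Cxcr6 averaged 2019 ± 303 CPM in PD1+KLRG1+ and 1599 ± 104 CPM in PD1-KLRG1- cells (0.33 ± 0.12, adjusted p = 0.154). Itgae, which encodes CD103, was at most 9.59 CPM in PD1+KLRG1+ libraries and at most 11.9 CPM in 4 PD1-KLRG1- libraries, with 135 CPM in replicate 5 (-2.52 ± 1.68, adjusted p = 0.517).

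Of 15 NK receptors, Cd244a rose and Klra6 and Klrk1 fell. Klrk1, which encodes the activating receptor NKG2D, was at 423, 434, 579.7, 652 and 648 CPM in PD1+KLRG1+ libraries, against 949, 973, 872, 848 and 1096 CPM in PD1-KLRG1- libraries (-0.81 ± 0.12, adjusted p = 0.000392), and the gates did not overlap. Among 9 chemokines Ccl3 rose, and among 16 AP-1 and immediate-early genes Dusp2, a phosphatase of MAP kinases, fell (-0.54 ± 0.14, adjusted p = 0.0331). The Dusp2 call ended in 5 of 10 fits with a library left out (adjusted p up to 0.0921), over all 27 libraries (0.22), in the 10 libraries alone (0.123) and within the libraries without the suffix (0.182). Ptprc, the CD45 of the sort, fell by 0.68 ± 0.14 (adjusted p = 0.00616). Of the markers for other cells, Fcer1g, a signalling adaptor of myeloid and NK cells, rose (58.3 ± 30.2 CPM in PD1+KLRG1+ and 11.1 ± 5.25 CPM in PD1-KLRG1- cells, 2.26 ± 0.50, adjusted p = 0.0131). Kit, the stem cell factor receptor, also rose (23.7, 137, 0, 139 and 89 CPM in PD1+KLRG1+, against 0, 6.66, 0.716, 9.37 and 1.89 CPM in PD1-KLRG1- libraries, 4.39 ± 1.13, adjusted p = 0.0337), and the groups overlapped, since it had no count in replicate 3 of PD1+KLRG1+. The Kit call ended in 6 of 10 fits with a library left out (adjusted p up to 0.0924, at 3.59 without PD1+KLRG1+ replicate 2), over all 27 libraries (0.0871), in the 10 libraries alone (0.281) and within the libraries without the suffix (0.226). The Fcer1g call ended over all 27 libraries (adjusted p = 0.0757) and in the 10 alone (0.0646). NK and innate-like markers summed to 309 to 519 CPM in PD1+KLRG1+ and 202 to 368 CPM in PD1-KLRG1- libraries. Of the 12 markers, 5 were higher and 4 lower on average in PD1+KLRG1+. Ncr1, which defines NK cells, was at 0 in all 10 libraries. B cell markers summed to 8.76 to 111 CPM in PD1+KLRG1+ and 227 to 342 CPM in PD1-KLRG1- libraries, mostly Ighm, with 5 of the 10 markers lower and 2 higher on average in PD1+KLRG1+. The part of these marker levels in the results, those of CD4+ and regulatory T cells included, was not tested.

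Outside the lists, the largest called differences with libraries that did not overlap named further genes. Tff1, a secreted trefoil peptide, was at 17.9, 53.3, 33.8, 24.5 and 64.2 CPM in PD1+KLRG1+ libraries and had no count in PD1-KLRG1- libraries, at least 849-fold higher. Jam2, an adhesion molecule of junctions (at least 526-fold), and Scin, an actin-severing protein (at least 311-fold), were also without a count in PD1-KLRG1- libraries, while in PD1+KLRG1+ libraries Jam2 ranged from 7.95 to 41.9 and Scin from 0.156 to 28.6 CPM. Ltbp3, a binding protein of latent TGF-beta, averaged 47.7 ± 14.3 CPM in PD1+KLRG1+ and 0.202 ± 0.420 CPM in PD1-KLRG1- cells. Dscam, an adhesion molecule known from neurons, averaged 57.5 ± 27.1 CPM in PD1+KLRG1+ and 0.234 ± 0.484 CPM in PD1-KLRG1- cells, and Pxdc1 averaged 39.9 ± 9.66 CPM in PD1+KLRG1+ and 0.193 ± 0.431 CPM in PD1-KLRG1- cells. All 6 had adjusted p of at most 0.00628, and all 6 were also present in PD1+KLRG1- cells, at means of 14.1 to 56.2 CPM. Within the libraries without the name suffix the calls of Scin and Pxdc1 ended (adjusted p = 0.0741 and 0.126).

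Among lower genes, Cd163l1, a scavenger receptor family member, Vipr1, a receptor for vasoactive intestinal peptide, and Aqp9, a glycerol channel, had no count in the 5 PD1+KLRG1+ libraries. Their means in PD1-KLRG1- cells were 18.3 ± 13.7, 18.1 ± 12.5 and 14.3 ± 14.5 CPM (SD, n = 5), at least 549.8-fold, 538-fold and 441-fold lower in PD1+KLRG1+ (adjusted p = 0.00285, 0.00323 and 0.0197). Within the libraries without the name suffix these calls ended (adjusted p = 0.051, 0.0567 and 0.143). St8sia1, which makes the ganglioside GD3, fell (-5.57 ± 1.43, adjusted p = 0.0327), a call that ended in 6 of 10 fits with a library left out. Slco3a1, an organic anion transporter, was at 20.3, 47.2, 24.4, 40.9 and 51.5 CPM in PD1+KLRG1+ libraries, against 246, 206, 161, 259 and 264 CPM in PD1-KLRG1- libraries (-2.64 ± 0.28, adjusted p = 1.46e-05). The lowest PD1-KLRG1- library held more than 3 times the Slco3a1 of the highest PD1+KLRG1+ library.

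The second question was whether these differences equal the sum of the PD1 and the KLRG1 differences. The departure from the sum is the log2 fold change of PD1+KLRG1+ over PD1-KLRG1- minus the PD1 difference and minus the KLRG1 difference, so that a positive value means more transcript in PD1+KLRG1+ cells than the sum. The comparisons share the PD1-KLRG1- libraries. No gene of 13288 was called (0%), with a smallest adjusted p of 0.366, and 645 genes had an unadjusted p under 0.05 (edgeR). The 645 are about as many as a threshold of 0.05 lets through when no gene departs from the sum. DESeq2 called 135 genes, 71 above and 64 below the sum. Their median level was 2.40 CPM, and 14 of them averaged 50 CPM or more. Without a filter on low counts edgeR called 50 genes above and 14 below the sum, and 54 of these 64 genes also pass the filter. For Ccl3 the departure was 2.23 with the filter and 2.29 without it, while the adjusted p went from 0.712 to 3.38e-08. Both fits use the same libraries, so calls without the filter, here and below, rest on no further data. Why the p-values differ was not tested.

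A departure that misses the threshold does not show that the differences add up, so the width of the intervals matters. In the 4485 genes that averaged 50 CPM or more the 95% interval of the departure lay within -1 to 1, that is within a factor of 2 in either direction, for 1818 genes (40.5%), and the median half-width was 0.82. Below that level few intervals were so narrow. Of the 490 genes called between PD1+KLRG1+ and PD1-KLRG1- cells, 197 had such an interval (40.2%), beside 13.86% of all 13288 genes. At 50 CPM or more the share was 45.34% of genes called higher and 56.68% of genes called lower, beside the 40.5% of all genes of that level. For the 224 genes called higher, the median was 1.53 for PD1+KLRG1+ over PD1-KLRG1-, 1.43 for the PD1 difference, 0.20 for the KLRG1 difference, 1.44 for their sum and 0.04 for the departure. For the 266 called lower, the medians were -1.22 for PD1+KLRG1+ over PD1-KLRG1-, -0.95 for PD1, -0.13 for KLRG1, -1.17 for the sum and -0.04 for the departure. These genes were chosen on the PD1+KLRG1+ values, so the medians are a description.

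Few genes passed for the KLRG1 part of the sum. The PD1 difference called 481 genes (3.62%), and the KLRG1 difference 4 (0.0301%). The 4 were Klrg1 itself, Osbpl3, which binds oxysterols and rose (1.00 ± 0.17, adjusted p = 0.0377), the lymph node homing receptor Ccr7, which fell (-3.68 ± 0.55, adjusted p = 0.0136), and Spp1, which encodes osteopontin and fell (-5.73 ± 0.90, adjusted p = 0.0158). Apart from Klrg1, these genes were chosen after their values were seen.

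Several genes with narrow intervals had a difference close to the sum. For Irf8 the difference was 2.45 ± 0.19 and the sum 2.49 ± 0.33, a departure of -0.05 (95% interval -0.59 to 0.50). For Havcr2 the difference was 2.20 ± 0.22, the sum 2.30 ± 0.38 and the departure -0.10 (-0.73 to 0.53). The departure of Prf1 was -0.23 (-0.84 to 0.38), of Cd69 -0.11 (-0.67 to 0.45), of Rtp4 0.31 (-0.32 to 0.94), of Satb1 0.07 (-0.71 to 0.85), of Tpi1 0.10 (-0.33 to 0.53) and of Il2rb -0.23 (-0.67 to 0.22). These intervals all lie within a factor of 2 of the sum. In each of these 8 genes the PD1 difference was the larger part, and the KLRG1 difference ran from -0.51 (Rtp4) to 0.50 (Havcr2). Gzmb, with its opposed parts, departed by 0.18 (-0.33 to 0.69). Not every narrow interval included 0. That of Klrk1 lay within a factor of 2 but below the sum, at -0.45 (-0.82 to -0.08, unadjusted p = 0.0183, adjusted p = 0.86, edgeR).

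**Figure D4:**
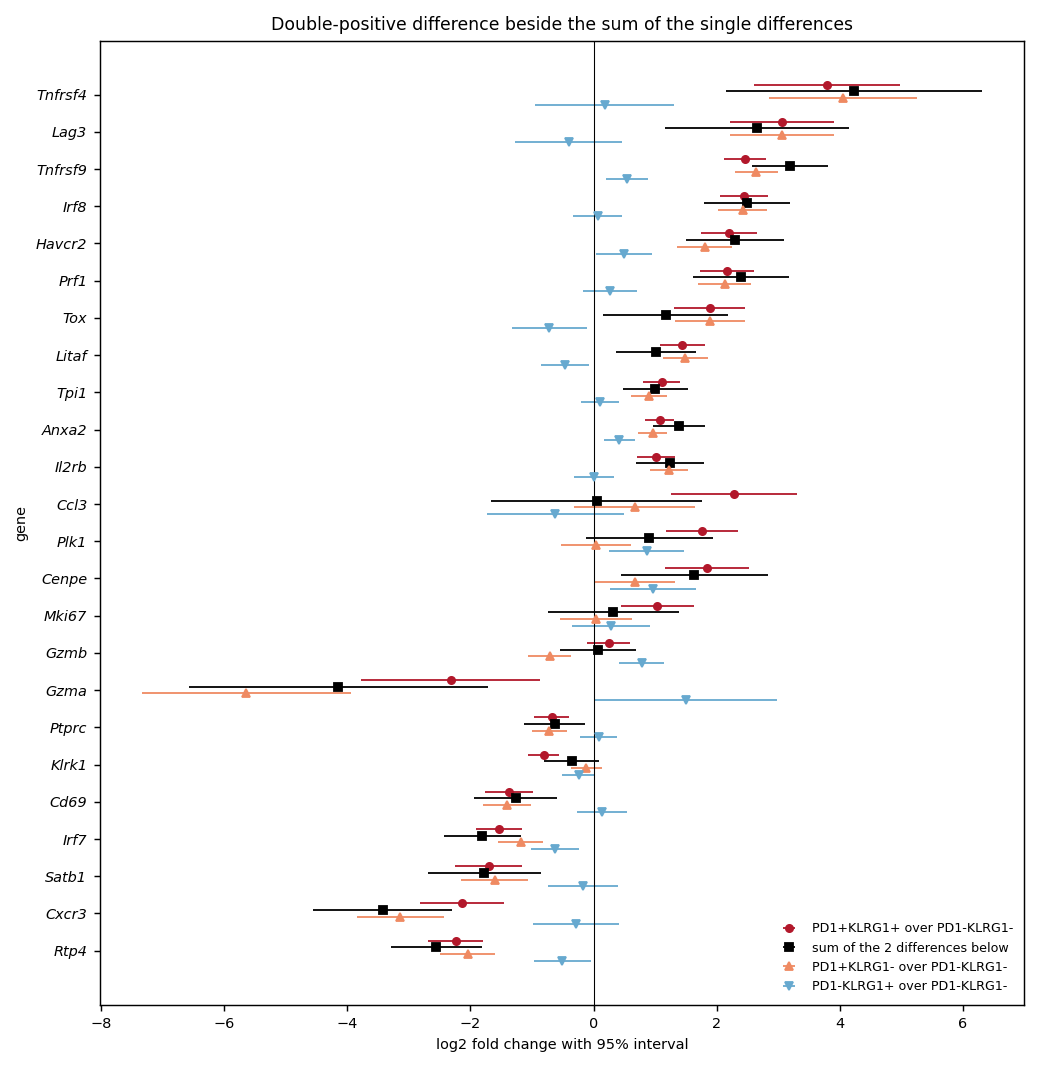
Genes run down the vertical axis, and the horizontal axis gives the log2 fold change with its 95% interval for PD1+KLRG1+ over PD1-KLRG1- cells (circles), the sum of the PD1 and KLRG1 differences (squares), and the PD1 (upward triangles) and KLRG1 (downward triangles) differences. Circles and squares lie close together in most genes, and Ccl3 has a circle at 2.29 and a square at 0.05.

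Some genes lay farther from the sum, though none passed with the filter on low counts. Ccl3, a chemokine that draws monocytes and T cells, was at 421, 462, 740.4, 377 and 466 CPM in PD1+KLRG1+ libraries, against 104, 43, 62.8, 45.7 and 242 CPM in PD1-KLRG1- libraries (2.29 ± 0.49, adjusted p = 0.0099). It averaged 160.5 ± 73.9 CPM in PD1+KLRG1- and 67.1 ± 34.5 CPM in PD1-KLRG1+ cells, so neither part came near the level of PD1+KLRG1+ cells. The departure was 2.23 ± 0.71 (95% interval 0.75 to 3.72, unadjusted p = 0.0052, adjusted p = 0.712). Without the filter it was called, at 2.29 (adjusted p = 3.38e-08). In the granzyme cluster Gzmf departed by 5.10 (2.37 to 7.83, unadjusted p = 0.000908) and Gzmc by 1.22 (-0.59 to 3.03, unadjusted p = 0.176). The departure of Gzmf was called without the filter (5.18, adjusted p = 4.33e-59) and by DESeq2 (5.71, adjusted p = 0.0114), and that of Gzmc without the filter (1.28, adjusted p = 0.0157). Gzmd was also called without the filter (adjusted p = 4.46e-20), but it had no count in PD1-KLRG1+ cells, so the size of its departure depends on the prior count, and Gzmf had counts in 1 of the 4 PD1-KLRG1+ libraries. Plk1 departed by 0.85 ± 0.40 (0.02 to 1.69, unadjusted p = 0.0459), with means of 111 CPM in PD1+KLRG1+, 33.6 in PD1+KLRG1-, 62.8 in PD1-KLRG1+ and 31.9 in PD1-KLRG1- cells. Over the 34 proliferation genes the median departure was 0.15 and none had an unadjusted p below 0.0459.

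Positive departures were also found in genes in which the PD1 part was strong and PD1+KLRG1+ cells were less extreme. Cxcr3 averaged 146 ± 69.6 CPM in PD1+KLRG1+ and 71.3 ± 13.6 CPM in PD1+KLRG1- cells, and departed by 1.30 ± 0.46 (0.34 to 2.26, adjusted p = 0.821). Without PD1+KLRG1+ replicate 5 this departure was called, at 1.55 (adjusted p = 0.00586). S1pr1 departed by 2.66 ± 0.96 (0.65 to 4.67, adjusted p = 0.83) and Gzma by 1.83 ± 0.99 (-0.24 to 3.89, adjusted p = 1). Without the filter on low counts both were called (adjusted p = 1.66e-10 for S1pr1 and 2.13e-09 for Gzma), at departures of 2.72 and 1.90. These departures are close to those of the main fit, in which the Gzma interval includes 0, and come from the same libraries. They are therefore no added evidence.

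Below the sum lay Tnfrsf9 (-0.73 ± 0.23, -1.21 to -0.26, unadjusted p = 0.00451), Cx3cr1 (-1.43 ± 0.52, -2.52 to -0.34, unadjusted p = 0.0129) and Zeb2 (-1.81 ± 0.65, -3.17 to -0.46, unadjusted p = 0.0113), with adjusted p of 0.681, 0.838 and 0.821. Zeb2 averaged 33.2 CPM in PD1+KLRG1+, 37.2 in PD1+KLRG1-, 34.9 in PD1-KLRG1+ and 11.7 in PD1-KLRG1- cells.

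The smallest departure p-values, in 6 genes chosen after their values were seen, included a gene with the same layout as Zeb2. Osbpl3 averaged 245 ± 48 CPM in PD1+KLRG1+, 280 ± 41 in PD1+KLRG1-, 237 ± 45.3 in PD1-KLRG1+ and 119.7 ± 15.1 in PD1-KLRG1- cells. All 14 libraries with either receptor lay above all 5 without. Its departure was -1.19 ± 0.24 (-1.68 to -0.70, unadjusted p = 6.38e-05, adjusted p = 0.366), and DESeq2 called it, at -1.14 (adjusted p = 0.000399). Spp1 had another layout, at 322 ± 115 CPM in PD1+KLRG1+ and 448 ± 175 in PD1+KLRG1- cells, 0.175 ± 0.350 in PD1-KLRG1+ and 11.6 ± 12.1 in PD1-KLRG1- cells, a departure of 5.25 ± 1.06 (3.03 to 7.46, adjusted p = 0.366). It was called by DESeq2 (5.55, adjusted p = 0.000208) and without the filter (5.31, adjusted p = 2.71e-28). Il1r2, a decoy receptor for interleukin-1, averaged 156 ± 57.1 CPM in PD1+KLRG1+, 125 ± 24.8 in PD1+KLRG1- and 18.9 ± 23.2 in PD1-KLRG1- cells and had no count in PD1-KLRG1+ cells, so its fitted departure depends on the prior count (unadjusted p = 5.75e-05). It was called by DESeq2 (adjusted p = 1.44e-07), without the filter (7.07e-29) and without PD1-KLRG1- replicate 1 (0.00149). For Spp1 and Il1r2 the departure rests on the low level in PD1-KLRG1+ cells. Nr2c1, Mlh3 and Dscam complete the 6, each nearly absent from 1 gate, with at most 0.233 CPM of Nr2c1 in PD1-KLRG1+, 0.0604 CPM of Mlh3 in PD1+KLRG1+ and 1.10 CPM of Dscam in PD1-KLRG1- libraries. DESeq2 and the fit without the filter called all 3 departures, and that of Dscam was also called without PD1-KLRG1- replicate 4 (-8.75, adjusted p = 0.00477).

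**Figure D5:**
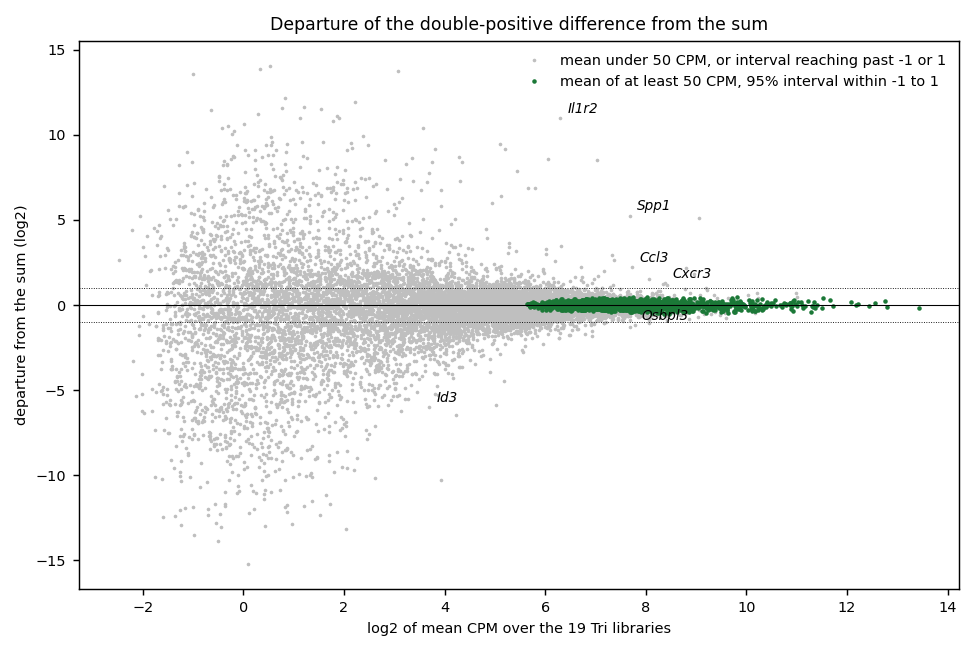
The departure from the sum on the log2 scale (vertical axis) is plotted against the log2 of the mean CPM over 19 libraries (horizontal axis), a point per gene, with dotted lines at -1 and 1. The 1818 genes of at least 50 CPM whose 95% interval lies between the lines are green, and departures spread widely below that level, where edgeR called no gene with the filter on low counts.

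A sum on the log2 scale is a product of folds, and on the CPM scale the answer can differ. Of 378 called genes that averaged 50 CPM or more, 60 had a departure of the opposite sign when levels in CPM were added, and in 38 of the 378 the CPM departure was more than 2 SE from 0. The same counts were not taken over all genes of that level, so they do not set the called genes apart. For Gzma the CPM departure was -1051 ± 378 CPM (SE), below the sum, while the log2 departure was positive. For Ccl3 it was 365 ± 82.8 CPM and for Osbpl3 -152 ± 36.8 CPM, with the sign of the log2 scale.

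The same layout can be read as steps from PD1+KLRG1+ cells to each neighbouring gate. Against PD1-KLRG1+ cells, PD1+KLRG1+ cells differed in 418 genes (3.15%), and against PD1+KLRG1- cells in 6 (0.0452%). The 6 were Klrg1, Gzmk, Gzmb, Plk1, Ccl5 and Klrk1, the first 5 higher in PD1+KLRG1+ cells and Klrk1 lower. Gzmk and Ccl5 were chosen after their values were seen. Gzmb averaged 2338 ± 418 CPM in PD1+KLRG1+ and 1199 ± 329 CPM in PD1+KLRG1- cells (0.96 ± 0.17, adjusted p = 0.0423), and no PD1+KLRG1- library reached the lowest PD1+KLRG1+ library. Gzmk, a granzyme of early effector cells, averaged 325 ± 120 CPM in PD1+KLRG1+ and 105 ± 31.9 CPM in PD1+KLRG1- cells (1.55 ± 0.25, adjusted p = 0.0253). Ccl5, a chemokine stored by memory cells, averaged 769.8 ± 368 CPM in PD1+KLRG1+ and 243 ± 76.8 CPM in PD1+KLRG1- cells (1.56 ± 0.28, adjusted p = 0.0471). Plk1 rose over PD1+KLRG1- cells by 1.72 ± 0.28 (adjusted p = 0.0253) and Klrk1 fell by 0.69 ± 0.12 (adjusted p = 0.0423). Gzmk and Ccl5 were higher still in PD1-KLRG1+ cells, at 861 ± 136 and 2324 ± 832 CPM, and in PD1-KLRG1- cells, at 548 ± 189.9 and 1129 ± 605 CPM.

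Steps that share no library can be set side by side across the 4485 genes of at least 50 CPM. The PD1 step among KLRG1+ cells and the PD1 step among KLRG1- cells had a Pearson r of 0.78 and a Spearman rho of 0.61 across genes. The KLRG1 step among PD1+ cells and the KLRG1 step among PD1- cells had r of 0.20 and rho of 0.17. These are descriptions across genes of 1 fit with shared scaling, and genes are not independent replicates.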

How the data were processed

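The authors deposited raw counts per gene, 47729 Ensembl identifiers in 27 libraries, of which the 19 Tri libraries were used. The submitters' processing notes name DESeq2 1.26.0 without a role, and what aligner, counter, genome build and strand setting were used is not given in the sources used here. The GENCODE vM21 name table gave symbols for 47224 identifiers.

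Genes that passed filterByExpr of edgeR 4.0.16 (R 4.3.3, minimum count 10) were scaled by TMM. They were fitted with the quasi-likelihood test on 4 gates plus a term for the name series (descriptions with or without an RNA-number suffix). A gene was called at a Benjamini-Hochberg p under 0.05 over the 13288 genes tested. The departure from the sum is an interaction contrast of the same fit. CPM values use the same scaling, errors of log2 fold changes are SE, and intervals are 95% intervals. Totals of 8586184 to 21204098 counts set the precision, and intervals and floors cover counting error or the spread between these libraries only. The scripts were tested on simulated data.

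Genes named by rule are those of the sort, a panel of 16 T cell genes, the 8 largest called changes in each direction with a mean of at least 10 CPM and libraries that do not overlap, and up to 2 called members of each list, without receptor segments and unnamed transcripts. Other called list members are given by value, and a few genes are not reported here. The members and lists were chosen with earlier results of these data known. Of 343 list entries 340 matched by symbol. Promoter sequences are from RefSeq. Alternatives were another scaling, no filter or a stricter one, all 27 libraries, each name series alone or no term for it, a replicate block, DESeq2 1.42.0, the 10 libraries alone, and each library left out. Replicate numbers were not used to pair libraries.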

Additional observations from a re-analysis of the deposited data

Results flagged for a closer look

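In 14 of 150 groups of libraries checked, 1 library lay apart from the others of its gate, where chance gives about 1 in 20 groups of independent, normally distributed values. CPM values of related genes are not such values, and a gene at 0 in all but 1 library is always flagged. No excess over chance can therefore be read from the count. Several of the flagged values are in replicate 5 of PD1+KLRG1+. There Gzma was at 0.883 CPM (next lowest 81.3), Cxcr3 at 24.2 CPM (next lowest 153), Rtp4 at 34.1 CPM (next lowest 62.8) and the B cell markers at 8.76 CPM (next lowest 85.1), while Cxcr6 was the highest of its gate, at 2560 CPM (next highest 1920). In the other PD1+KLRG1+ libraries, Tox was low in replicate 1 at 136 CPM (next 231), Cd3e in replicate 2 at 1270 CPM (next 1460) and Kit in replicate 3 at 0 CPM (next 23.7). Replicate 4 of PD1+KLRG1+ had a ribosomal protein share of 2.1% (next 3.18%) and a trace of Mlh3, 0.0604 CPM, where the other 4 libraries had no count. In PD1-KLRG1- libraries, Tnfrsf9 was low in replicate 3 at 163 CPM (next 215), and genes otherwise nearly absent had traces in a library each, Ltbp3 at 0.951 CPM and Dscam at 1.1 CPM in replicate 4 and Pxdc1 at 0.963 CPM in replicate 2.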

How the results depend on the processing

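Of 224 genes called higher and 266 called lower in PD1+KLRG1+ against PD1-KLRG1- cells, counts stayed within 1.5 times under another scaling (247 and 242), a minimum count of 50 (242 and 282), no name-series term (179 and 206) and, added after seeing the data, genes of at least 50 CPM (215 and 303). They moved to 379 and 448 without a count filter, 66 and 125 over all 27 libraries, 575 and 622 with DESeq2 and 105 and 94 in a fit of the 10 libraries alone. Libraries without the name suffix gave 126 and 200, and those with it, 2 per gate, 8 and 0. The cause was not tested. Leaving out 1 library gave 159 to 256 higher and 157 to 307 lower genes, in each case lowest without PD1-KLRG1- replicate 1 and highest without its replicate 5. Departures from the sum numbered 50 above and 14 below without a count filter, 71 and 64 with DESeq2, and 0 and 2 (Nupl1 and Ikbkg) in libraries without the suffix. Leaving out 1 library gave 0 to 1 above and 0 to 3 below. Of the 66 named genes none reversed under the alternatives run. Same-numbered libraries shared little variation. Their deviations correlated at -0.0767 to 0.154 over 27 pairs, and 1 of 5 PD1+KLRG1+ libraries correlated best with the PD1-KLRG1- library of its number. This does not tell whether they come from the same mice, which the labels do not state. The sample descriptions number the gates of a replicate in sequence. The replicate block gave 199 higher and 257 lower genes and 0 departures. DESeq2 also called Cd3e, Cd8a and Cxcr6 higher (adjusted p = 0.0132, 0.0267 and 0.0122). Among the genes described, the block called Ifng (1.30, adjusted p = 0.0337) and Tcf7 (-4.78, adjusted p = 0.0306) and ended the call of Mki67 (1.03, adjusted p = 0.0724).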

Other observations

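The median departure from the sum was 2.0 over the 9 chemokines tested, beside -0.08 over all genes. Ccl4, a chemokine that T cells release with Ccl3, was at 855, 746, 809, 619 and 704 CPM in PD1+KLRG1+ libraries, against 400.5, 202, 338, 167 and 1127 CPM in PD1-KLRG1- libraries. Replicate 5 of PD1-KLRG1- was above every PD1+KLRG1+ library and the other 4 were below, and the difference did not pass (log2 fold change 0.73, adjusted p = 0.434, edgeR). A higher PD1-KLRG1- level raises the departure, so this replicate, which also held the most Ccl3 of its gate, raises those of Ccl4 and Ccl3. The median departure was not taken without it. Without that replicate 3 chemokines were called higher, against 1 with it. No chemokine departure passed with the filter on low counts, and without it edgeR called those of Ccl3 (2.29, adjusted p = 3.38e-08), Ccl4 (2.25, adjusted p = 1.22e-12) and Xcl1 (2.66, adjusted p = 0.00202).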
